A study of Mus musculus with 8 samples.

Results

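Amino acid transporter genes were examined after knockdown of Emg1, the gene of an 18S ribosomal RNA methyltransferase, in the mouse neuroblastoma line N2a. The group was a named list of 10 genes: Slc7a11, Slc7a5, Slc3a2, Slc7a1, Slc1a4, Slc1a5, Slc38a1, Slc38a2, Slc36a1 and Slc7a3. All 10 were among the 16279 genes of the authors' table for input RNA and among the 12807 genes with an adjusted p. In the list of 2114 differential m6A peaks, 6 peaks on 5 of the 10 genes were found by gene name. Cells were collected 48 h after transfection with an siRNA against Emg1 or with a control siRNA, and poly(A) RNA was sequenced as input and after immunoprecipitation (IP) with an antibody to N6-methyladenosine (m6A). The 8 libraries formed 4 groups of 2: knockdown input, control input, knockdown IP and control IP. The labels do not name separate cultures for the libraries within a group, and the spread behind the authors' p-values may be technical.

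Cells take up amino acids through families of solute carriers that differ in substrate and in coupling. Slc7a5 (LAT1, large neutral amino acids) and Slc7a11 (xCT, cystine in exchange for glutamate) are light chains that reach the membrane bound to the heavy chain Slc3a2, whereas Slc7a1 and Slc7a3 (CAT-1 and CAT-3) carry arginine and lysine alone. Slc1a4 and Slc1a5 (ASCT1 and ASCT2) exchange small neutral amino acids, Slc38a1 and Slc38a2 (SNAT1 and SNAT2) take up neutral amino acids such as glutamine with sodium, and Slc36a1 (PAT1) moves small amino acids with protons across the plasma membrane and out of the lysosome. Several of these genes are known targets of the transcription factor ATF4 in the amino acid response, and xCT supplies the cystine used for glutathione.

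The deposited tables give no value per library. The spread of each change is therefore known only through the standard error (SE) of the authors' DESeq2 fit. The mean given for a gene is its mean normalized count over the libraries of that fit, and levels are not compared between genes because it is not scaled by transcript length. Emg1 fell by 1.73 ± 0.11 (log2, SE) in the authors' deposited table, which is 30.2% of control; the file names no direction, and this sign was used to read all input changes as knockdown over control. Of 12 markers of neuroblastoma cells, 10 had a mean of at least 100, with Stmn2 highest at 13352; the highest mean among markers of leukocytes was 15.4, of endothelium and epithelium 407 (Pecam1), of glia 688 (Mbp) and of fibroblasts 1357 (Pdgfra), all in the authors' deposited table. Of the markers of other cell types with an adjusted p, only Pdgfrb passed, at -0.98 ± 0.19 in the authors' deposited table, and its part in the transporter results was not tested. The neuroblastoma markers were not steady: of 11 with an adjusted p, 6 rose and 2 fell, beside 32.6% of all genes that passed. Stmn2 was at -0.65 ± 0.06 in the authors' deposited table.

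The transporter genes did not move as a group. By the authors' adjusted p under 0.05, 2 rose (Slc36a1 and Slc7a1), 3 fell (Slc7a3, Slc1a4 and Slc7a11) and 5 did not pass. Of all genes with an adjusted p, 32.6% passed in either direction, 17.1% rising and 15.5% falling. The members are all abundant, with means between 2012 and 20399, and of the 3944 genes with a mean of at least 2000, a limit set after their means were seen, 49.7% passed. Among these genes 28.9% rose and 20.8% fell. The count of 5 of 10 is near the share for genes of such abundance. The median log2 fold change of the 10 was -0.05, beside -0.002 over all genes with an adjusted p and 0.03 over those with a mean of at least 2000.

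**Figure D1:**
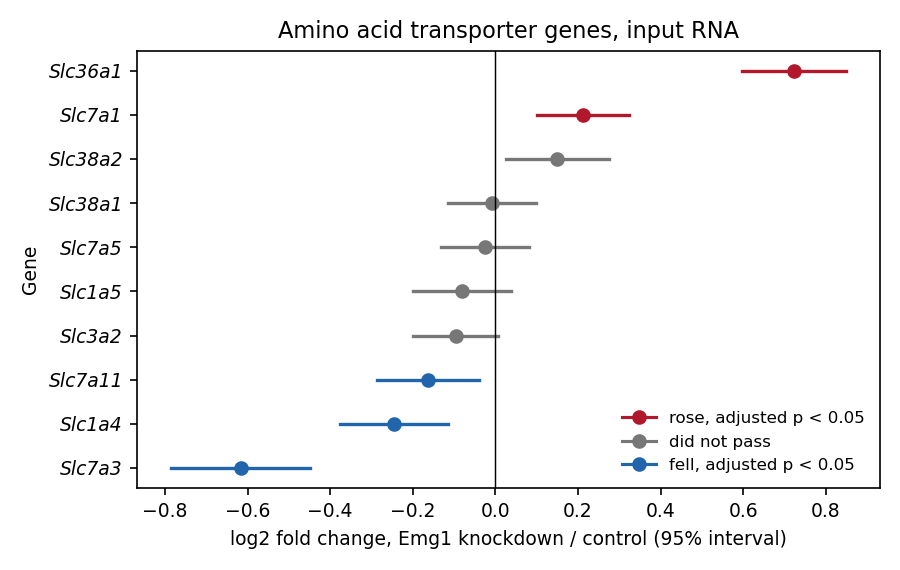
Log2 fold change in input RNA, knockdown over control, of the 10 transporter genes (points, authors' values) with 95% intervals computed from the deposited SE (lines); red marks genes that rose, blue genes that fell and grey genes that did not pass. Slc36a1 at 0.72 and Slc7a3 at -0.62 stand outside the other 8, which lie between -0.24 and 0.21.

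Slc36a1, the proton-coupled transporter, rose most. In the authors' deposited table its mean was 4427 normalized counts and its change 0.72 ± 0.06 (log2, SE; DESeq2 adjusted p = 6.33e-27), which is 165% of control with a 95% interval of 151 to 180.1. Ranked by log2 fold change from the highest, it was number 244 of the 12807 genes with an adjusted p, and its change lay above that of 99.2% of genes at a mean of 2000 or more. A change of at least 1.5-fold with an adjusted p under 0.05 was found for 4.13% of those genes and 6.67% of all genes with an adjusted p, and among the 10 transporters for Slc36a1 and Slc7a3. The bases before the annotated start of Slc36a1 are shown because it is the transporter with the largest rise and its promoter holds 2 copies of the E-box CACGTG, the palindrome bound by Myc and by the MiT/TFE factors of lysosomal genes. The RefSeq stretch (GRCm38.p6, chr11:55204220-55204343, plus strand) runs from position -120 to 4 of the annotated start, with the E-box matches in capitals.
Slc36a1: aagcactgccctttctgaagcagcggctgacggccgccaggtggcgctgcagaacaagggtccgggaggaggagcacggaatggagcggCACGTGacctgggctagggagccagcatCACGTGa
The matches lie at -31 to -26 and at -3 to 3, the second across the start itself. CACGTG occurs in 7.15% of the 32851 RefSeq promoter windows of the same length, which run from 250 bases before to 50 after a start. Of the 1130 genes with an adjusted p and such a window, 20.4% rose and 13.4% fell, beside 17.5% and 15.6% of the 9631 genes with any promoter in that table. No other transporter promoter in the table held the letters. Whether a factor binds these bases was not measured.

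The cationic amino acid transporters went in opposite directions. Slc7a3, the form typical of neurons, fell by 0.62 ± 0.09 (log2, SE; DESeq2 adjusted p = 2.11e-11) from a mean of 2012 in the authors' deposited table, equal to 65.2% of control (95% interval 58.0 to 73.3). Its change was lower than that of all but 1.75% of genes at a mean of 2000 or more. Slc7a1, the widely expressed form, rose by 0.21 ± 0.06 (DESeq2 adjusted p = 0.00121) at a mean of 8199 in the authors' deposited table, equal to 116% of control (107 to 125). The intervals of the pair do not overlap. The RefSeq span of Slc7a3 overlaps that of Snx12, a sorting nexin gene; the sources used here do not say whether counting used strand. Snx12 itself was at 0.07 ± 0.08 (DESeq2 adjusted p = 0.549) in the authors' deposited table.

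For the heavy chain and its light chains the changes were small. Slc7a11 fell by 0.16 ± 0.06 (log2, SE; DESeq2 adjusted p = 0.0315) at a mean of 7132 in the authors' deposited table, equal to 89.3% of control (95% interval 82.0 to 97.2). Slc3a2, with a mean of 12900, was at -0.10 ± 0.05 (DESeq2 adjusted p = 0.153) in the authors' deposited table, and its interval ran from 87.1% to 100.5% of control. Slc7a5, the most counted of the 10 at a mean of 20399, was at -0.02 ± 0.05 (DESeq2 adjusted p = 0.776) in the authors' deposited table, with an interval of 91.3% to 106%. The interval of Slc7a11 overlaps those of both partners, and differences between the 3 genes were not tested.

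Of the neutral amino acid exchangers, Slc1a4 passed and Slc1a5 did not. Slc1a4 fell by 0.24 ± 0.07 (log2, SE; DESeq2 adjusted p = 0.00154) at a mean of 4172 in the authors' deposited table, equal to 84.4% of control (95% interval 77.1 to 92.4). Slc1a5, which carries glutamine, was at -0.08 ± 0.06 (DESeq2 adjusted p = 0.325) at a mean of 5855 in the authors' deposited table, or 94.6% of control (87.1 to 103). Their intervals overlap, and a difference between the pair was not tested.

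Neither sodium-coupled neutral transporter passed. Slc38a1 was at -0.01 ± 0.05 (log2, SE; DESeq2 adjusted p = 0.937) with a mean of 9598 in the authors' deposited table, and its 95% interval was 92.4% to 107% of control. Slc38a2, the form induced when amino acids are scarce, was at 0.15 ± 0.06 (DESeq2 adjusted p = 0.0531) with a mean of 10980 in the authors' deposited table, or 111% of control (102 to 121). This call depended on the genes tested: with the p-values adjusted over genes at a mean of 100 or more, Slc38a2 passed at an adjusted p of 0.0474.

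**Figure D2:**
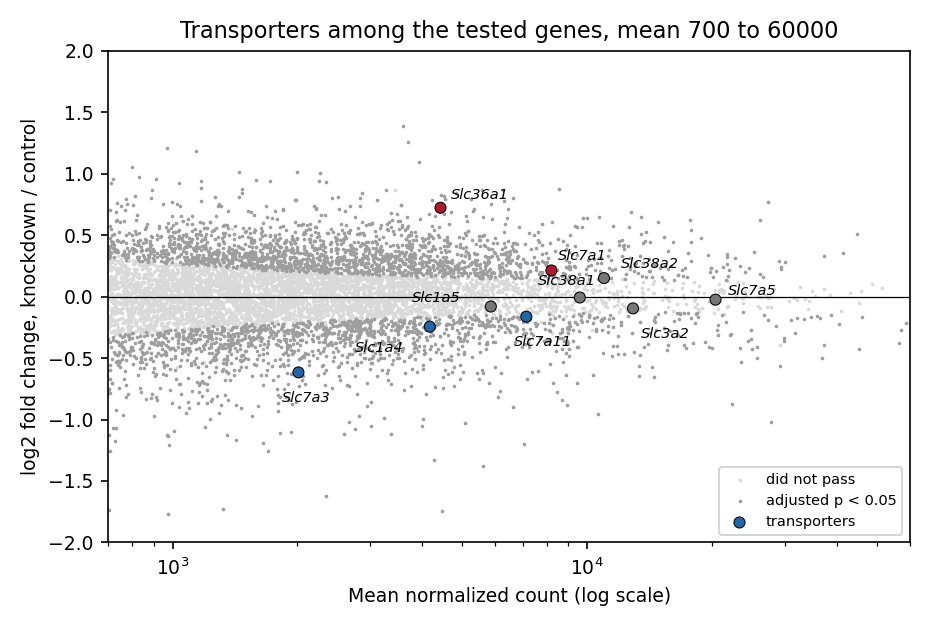
Log2 fold change against mean normalized count (log axis) for genes with an adjusted p, dark grey where it was under 0.05; the transporters are outlined, red where they rose, blue where they fell and grey where they did not pass. Changes beyond the axis are not drawn. Apart from Slc36a1 and Slc7a3 the transporters lie between -0.24 and 0.21.

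Promoters of 6 of the 10 genes were in the RefSeq table; those of Slc7a5, Slc1a5, Slc38a1 and Slc7a3 were not searched. Of the 6, Slc7a11 and Slc1a4 held the C/EBP-ATF response element (CARE), searched as TGATGNAA on both strands. This is the element through which ATF4 acts with C/EBP partners in the amino acid response. The stretches below are shown to place these matches, which are in capitals; a match read on the opposite strand appears as its reverse complement, TTNCATCA. Slc7a11 (chr3:50443614-50443733, minus strand) runs from position -120 to -1 of the annotated start, and Slc1a4 (chr11:20332710-20332833, minus strand) from -120 to 4, both in GRCm38.p6.
Slc7a11: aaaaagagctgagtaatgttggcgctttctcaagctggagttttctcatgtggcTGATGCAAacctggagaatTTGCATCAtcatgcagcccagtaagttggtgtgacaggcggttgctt
Slc1a4: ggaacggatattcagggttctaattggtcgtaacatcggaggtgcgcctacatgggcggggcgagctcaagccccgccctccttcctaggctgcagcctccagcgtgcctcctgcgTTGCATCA
The Slc7a11 window holds 2 matches in opposite orientation, at -66 to -59 and -47 to -40, and the Slc1a4 window 1 match across the start, at -4 to 4. CARE letters occur in 3.97% of all promoter windows. Of the 263 genes with an adjusted p and a match, 12.5% rose and 19.0% fell, beside 17.5% and 15.6% of all 9631 genes with a promoter in the table. The antioxidant response element bound by NRF2, searched as TGACNNNGC on both strands, occurs in 12.4% of windows, and in those of Slc7a1, Slc38a2 and Slc36a1 among the members. In the window of Slc7a11, a known NRF2 target, these letters did not occur. Binding of a factor to any of these matches was not measured, and their part in the changes was not tested.

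Related genes of amino acid metabolism, response and sensing are given by their counts, beside the 17.1% of all genes with an adjusted p that rose and the 15.5% that fell. The lists were chosen with earlier results of the data known, and their counts are descriptions. Of 22 enzyme genes of amino acid metabolism with an adjusted p, 15 fell and 2 rose; the median change was -0.27 on the log2 scale. Among them the authors' deposited table gave the asparagine synthetase gene Asns at -0.50 ± 0.05 and the serine synthesis genes Psat1 at -0.42 ± 0.05, Phgdh at -0.46 ± 0.06 and Psph at -0.45 ± 0.07. In the amino acid response list 8 of 15 fell and 1 rose (median -0.26). Its transcription factor gene Atf4 was at -0.43 ± 0.06, its targets Trib3 at -0.64 ± 0.08 and Ddit4 at -0.57 ± 0.08, and Atf5 at -0.59 ± 0.12, in the authors' deposited table. Most of these changes were small: when a change of at least 1.5-fold was also required, 0 of the enzyme genes and 2 of the response genes passed.

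In a list of glutathione genes and NRF2 targets with its regulators, 5 of 19 genes fell and 3 rose (median -0.07). The number that rose was 1 at a threshold of 0.01 and 5 at 0.1, and 5 fell at both. Chac1, which degrades glutathione, fell by 0.82 ± 0.10, and Cth, which makes cysteine from cystathionine, fell by 0.82 ± 0.12 in the authors' deposited table. G6pdx, which supplies NADPH, fell by 0.60 ± 0.07, while the thioredoxin reductase gene Txnrd1 rose by 0.30 ± 0.05 in the authors' deposited table. Genes of amino acid sensing upstream of mTORC1 fell in 6 of 29 cases and rose in 3 (median -0.08), close to the 32.6% of all tested genes that passed in either direction. The GATOR1 subunit gene Depdc5 was at 0.40 ± 0.08, the Rag GTPase gene Rraga at -0.47 ± 0.11 and the sestrin gene Sesn3 at -0.67 ± 0.16 in the authors' deposited table.

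Counts for the other amino acid carriers stand beside the 32.6% of all tested genes that passed, and nothing is read from them about these lists. Of 43 further amino acid transporter genes of solute carrier families, 27 were matched in the table and 16 had an adjusted p. Not all of these families hold a member. Of the 16, 2 rose and 1 fell (median 0.01). Slc7a14, a lysosomal relative of the cationic transporters, rose by 0.43 ± 0.06, Slc36a4, a relative of Slc36a1, rose by 0.37 ± 0.15, and the lysosomal glutamine carrier gene Slc38a7 fell by 0.23 ± 0.08 in the authors' deposited table. Among 14 carriers of mitochondria and lysosomes 3 fell and 1 rose (median -0.20). The mitochondrial glutamate carrier gene Slc25a22 fell by 0.44 ± 0.11, the aspartate-glutamate carrier gene Slc25a12 fell by 0.29 ± 0.08 and the serine carrier gene Sfxn1 fell by 0.32 ± 0.08, and Mfsd12, needed for cysteine import into lysosomes and melanosomes, rose by 0.73 ± 0.19 in the authors' deposited table.

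**Figure D3:**
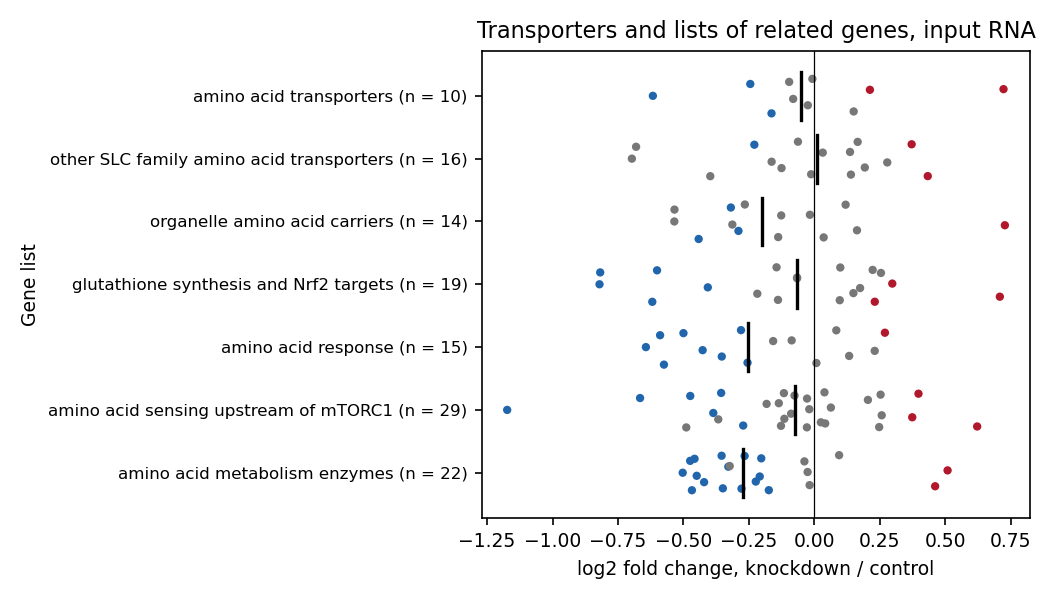
Log2 fold change in input RNA for each gene with an adjusted p in the transporter list and 6 related lists (points; red rose, blue fell, grey did not pass; vertical bars are medians). The enzyme list has 15 blue and 2 red points, and the transporter list 3 and 2.

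Differential m6A peaks were listed on Slc3a2, Slc36a1, Slc1a4, Slc1a5 and Slc38a1, and on none of Slc7a11, Slc7a5, Slc7a1, Slc38a2 and Slc7a3. At least 1 differential peak was carried by 14.8% of genes with an adjusted p in input and by 24.9% of those with a mean of at least 2000. Only differential peaks were analysed here, so a gene without one may still carry m6A. The condition in the numerator of a peak change is not named in the deposited list, and signs are given as deposited. It gives no error for a change and no value per library, and the enrichment of IP over input, a fold, is the authors' own value per peak.

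Slc36a1 carried peaks of both signs, as did 37 of the 1912 genes in the list. Its upstream peak (mm10, chr11:55204460-55219014) began 120 bases after the annotated start and consisted of 3 blocks of 29, 145 and 7 bases separated by gaps. That peak changed by -1.5 (log2) with a false discovery rate of 0.000407 and a fold enrichment of 2.67 in the authors' deposited table. The downstream peak (chr11:55232735-55232944) was 1 block of 210 bases, ending 3386 bases before the end of the gene span. Its change was 2.12 with a false discovery rate of 7.41e-07 and a fold enrichment of 3.66 in the authors' deposited table. By size the change ranked number 9 among the 991 positive changes. By false discovery rate from the lowest, the upstream peak was number 1681 and the downstream peak number 1015 of 2114. Both fold enrichments were below the median of 5.525 for all differential peaks. The RNA of the gene rose in input as given above. The sources used here do not say whether input libraries enter a peak change.

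The peak on Slc3a2 was the member peak with the lowest false discovery rate. It covered 330 bases (chr19:8713566-8713895, minus strand) and began 2 bases after an annotated start. In the authors' deposited table it changed by -0.75 (log2) with a false discovery rate of 3.16e-52, number 79 of 2114 from the lowest. Its fold enrichment was 2.37, below the median of 5.525 for all differential peaks. The RefSeq span of Slc3a2 reaches further upstream than this start, which places the peak at 58.5% of the span.

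The exchangers and Slc38a1 carried peaks near the end of the gene with small changes. On Slc1a4 the peak (chr11:20302749-20304307) was 1559 bases long and ended 569 bases before the end of the span, with a change of 0.27, a false discovery rate of 1.41e-06 and a fold enrichment of 8.44 in the authors' deposited table. Slc1a5 had a peak of 330 bases (chr7:16797615-16797944), 330 bases from the end, at 0.43, with a false discovery rate of 9.33e-09 and a fold enrichment of 4.94 in the authors' deposited table. The Slc38a1 peak (chr15:96575913-96576692), 780 bases long and 4495 bases from the end, was at -0.29 with a false discovery rate of 7.24e-05 and a fold enrichment of 9.65 in the authors' deposited table. These 3 changes are smaller than the medians of 0.75 for positive and -0.72 for negative peaks in the list. Whether a peak lay in coding sequence or in an untranslated region was not analysed here, and the RefSeq span of Slc38a1 overlaps the noncoding gene Gm32457.

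**Figure D4:**
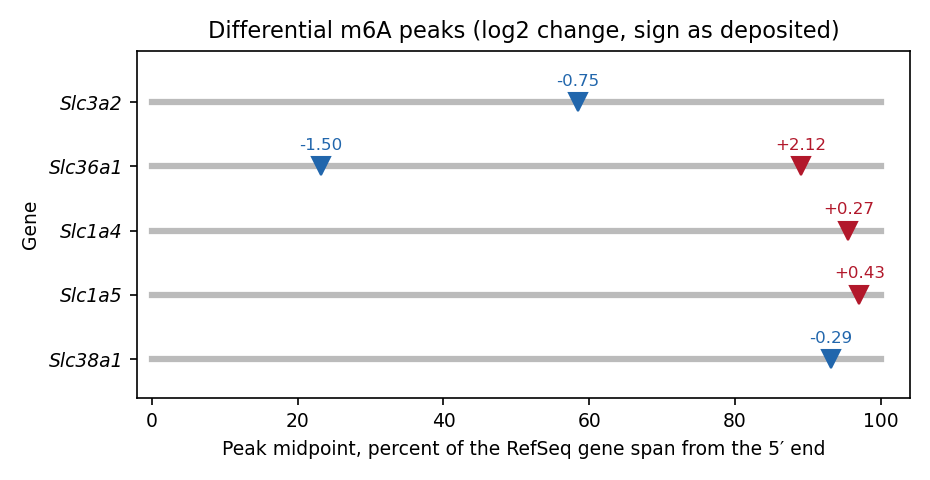
Midpoint of each differential m6A peak on the transporters, placed along the RefSeq gene span in percent from the 5′ end, introns included (grey bars), labelled with the deposited log2 change (blue negative, red positive). Peaks of Slc1a4, Slc1a5 and Slc38a1 and the positive peak of Slc36a1 lie beyond 89% of the span. The midpoints of the negative peaks of Slc36a1 and Slc3a2 lie at 23.2% and 58.5%. The negative Slc36a1 peak covers 181 bases in 3 blocks with gaps between them and begins 120 bases after the annotated start. Its midpoint may therefore fall in a gap.

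Both member peaks that began within 200 bases of an annotated start, on Slc3a2 and Slc36a1, had a negative change. That window was not set in advance. Across the list, 38.5% of 850 negative-change peaks and 5.09% of 766 positive-change peaks that could be placed against a start began that close. The positive-change peaks of Slc36a1, Slc1a4 and Slc1a5 lay in the last 20% of the span, as did 65.8% of positive-change and 32.9% of negative-change peaks that could be placed; Slc38a1 was a negative-change peak there. Of the other carriers of these families, Slc7a6, which pairs with Slc3a2, had peaks of 0.24 and 0.54 near the end of the span, and the change on Slc38a10 was -0.35, all from the authors' deposited table.

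**Figure D5:**
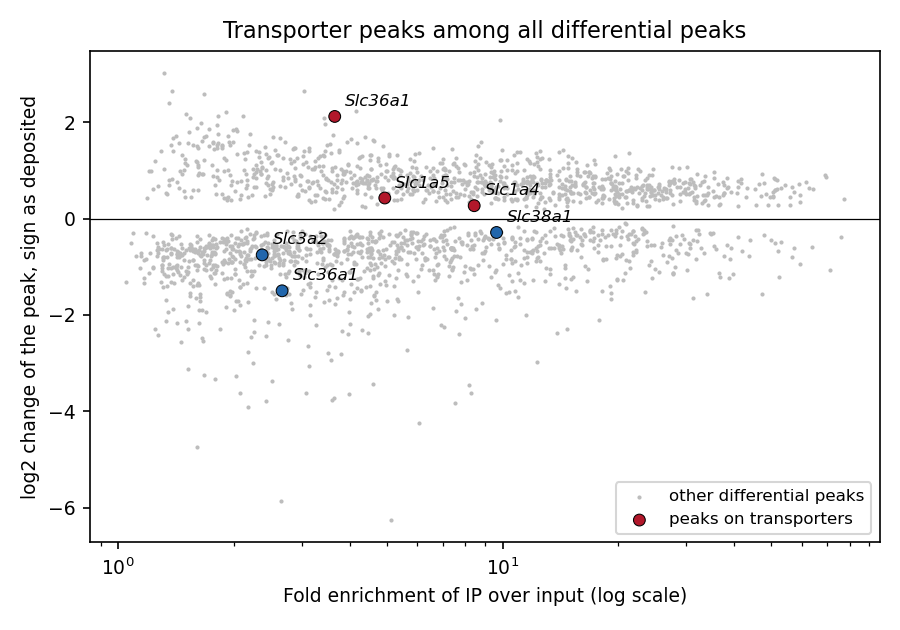
Deposited log2 change against fold enrichment of IP over input (log axis) for all 2114 differential peaks (grey) and the 6 on transporters (outlined, red positive, blue negative). The positive peak of Slc36a1 at 2.12 lies near the upper edge, and the peaks of Slc1a4, Slc1a5 and Slc38a1 lie near 0.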

How the data were processed

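The submitters' processing notes name the mm10 build and the tools HISAT2, Trimmomatic and DESeq2; tool versions, the read counter, the peak caller and any pooling of replicates were not given in the sources used here. The authors deposited a mean normalized count per gene (a signal), log2 fold changes with SE, a Wald score, p-values and adjusted p-values for input RNA. For each differential peak they deposited a p-value, a fold enrichment (a ratio), a log2 change and log10 p scores. Depth per library is unknown, and precision is that of the SE. The 3472 genes without an adjusted p had means up to 22.7.

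A gene passed at an adjusted p under 0.05 in the authors' test. Wald 95% intervals, not adjusted for multiple tests, were computed from the SE. The members and lists were chosen with earlier results of these data known. Named were all 10 members, Emg1, member peaks and peaks of the further solute carrier genes listed. Per list, up to 4 passing genes with the smallest adjusted p were named, or 2 where none passed. The values of 1 gene so chosen are not reported here. Further markers are named for their means. For 3 listed genes an older symbol was matched. Promoters and starts came from RefSeq (GRCm38.p6). The alternatives were other thresholds, adjustments, a minimum mean of 100, centring, and size or enrichment minimums. Adjustment and calling were tested on simulated data. Scripts ran in Python 3.11.15 with pandas 2.3.3, numpy 2.4.6, matplotlib 3.10.9 and scipy 1.17.1.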

Additional observations from a re-analysis of the deposited data

How the results depend on the processing

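The count of 5 transporters that passed was 4 at a threshold of 0.01, where Slc7a11 was lost, and 6 at 0.1 or with adjustment over genes at means of 100 or more, where Slc38a2 was gained. It was 5 with adjustment over all genes and with centring on 0.01, the median of genes at means of 100 or more. Counting changes of at least 1.5-fold left 2 transporters, Slc36a1 and Slc7a3, because that setting removes small changes. Among the related lists the same minimum took the enzyme genes that passed from 17 to 0 and the response genes from 9 to 2. Thresholds and adjustments leave the fold changes themselves as they are. Of the 6 peaks, 2 had an absolute log2 change of at least 1, both on Slc36a1, and all 6 had a false discovery rate under 0.01 and a fold enrichment of at least 2. With a window of 100 bases, chosen after seeing the data, 1 member peak (Slc3a2) began near a start. No paired analysis was possible because the tables hold no values per library, and leaving out each replicate was not run for the same reason.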

Other observations

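Some genes of the related lists also carried differential m6A peaks that began near an annotated start. They were picked after their values were seen, and only the first base of a peak was placed. Chac1, which degrades glutathione, had a peak that began 0 bases from its start and changed by -3.44, and a second peak of 0.37 that ended 88 bases before the end of the gene span, in the authors' deposited table. It is thus a second gene with both signs beside Slc36a1, although its RNA fell by 0.82 ± 0.10 in input where that of Slc36a1 rose. Bcat1, a branched-chain aminotransferase gene, had a peak of -2.97 that began 30 bases from its start, with a fold enrichment of 12.3, in the authors' deposited table. A peak on Mios, a GATOR2 subunit gene, began 119 bases from its start and changed by 0.55 in the authors' deposited table. In all, 5 peaks on genes of the related lists began within 200 bases of a start, 4 with a negative change and 1, that on Mios, with a positive one. The remaining negative ones were on Nupr1 (-0.82) and Lamtor2 (-0.51) in the authors' deposited table. Across the whole list of differential peaks, 38.5% of 850 placed negative-change peaks began within 200 bases of a start. For positive-change peaks the share was 5.09% of 766. The lean to negative changes near a start is thus general to the list, and no trait of these genes is read from the 5 peaks. Not all of the 5 peaks were confined to the start. The Nupr1 peak had 3 blocks and ended 0 bases from the end of the gene span. That on Lamtor2 had 4 blocks and ended 171 bases before the end, and that on Mios had 5 blocks covering 1763 bases.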
